A study of Mus musculus with 6 samples.

Results

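Integrins are paired α and β receptors that fix cells to the matrix around them, and laminins are cross-shaped αβγ matrix proteins that many integrins bind. In basement membranes the laminin network is tied to collagen IV by nidogens, with the proteoglycan perlecan (Hspg2) as a further link. In the heart such sheets surround each muscle cell, underlie the endothelium and the epicardium, and hold the muscle cell's costameres through integrins and dystroglycan. The genes described are 31 integrin, laminin, nidogen and perlecan genes, chosen by name. Probe sets annotated to exactly 1 of them were taken, which gave 70 of 45101 probe sets on the array and 30 of 18193 genes. For Itga11, a collagen receptor subunit, no probe set was annotated.

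RNA came from 3 FOG-2R3K5A (mutant) and 3 WT whole-heart samples of sibling mouse embryos of embryonic day 16.5, each a biological replicate with 1 array. The parents were double heterozygous, of a mixed strain (C57/B6, 129 S6). FOG-2, encoded by Zfpm2, is a cofactor of GATA factors, and with the R3K5A change it no longer recruits the NuRD complex, a chromatin remodeller. The labels give neither the zygosity or sex of the embryos nor whether a replicate was 1 heart or several. Each sample is therefore counted as 1 replicate. The p-values set the genotype difference against the spread between samples of a genotype, and cover these 6 samples only. The question was which of these genes differ between the genotypes. In RNA of whole hearts, fewer cells of a type and less RNA per cell cannot be told apart.

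All values are log2 array intensities, and differences are mutant minus WT on that scale. Each gene is read by its main probe set, the one with the highest mean over the 6 arrays. A gene entered the test if that mean exceeded 6.30 log2 units, the median of all non-control probe sets, and it was called at an adjusted p under 0.05 by limma over all 11113 tested genes. Array median intensities were 77.4 to 84.1. Arrays correlated at 0.990 to 0.995 within mutants, 0.982 to 0.986 within WT and 0.972 to 0.990 between genotypes. WT replicate 1 lay closest to mutant replicate 2 (0.990). With that WT array left out the fit called 451 genes, and with mutant replicate 1 left out 37, where the 6 arrays gave 196. As a check of the tissue, 11 of 11 cardiomyocyte and 13 of 13 endothelial markers were above the filter level. Of all 18193 genes, 11113 were above that level. Of 13 lung and airway markers 4 were above it. Among them Scgb3a2 was high on mutant replicates 1 and 3, and Sftpc on mutant replicate 3.

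Of the 22 genes tested, 3 rose in mutant hearts (Nid2, Itgav and Lamb1) and 0 fell, where 1.76% of all tested genes were called (1.39% higher, 0.369% lower). Differences in these 22 genes ran from -0.40 to 0.68 with a median of 0.12, against a median of -0.01 over all genes tested. At an unadjusted p under 0.05 there were 8 higher and 0 lower, where 14.7% of all tested genes reached it (8.4% higher, 6.33% lower). The genotypes did not overlap, on the main probe set, for 8 genes that were higher in mutants and 1 that was lower, where 21.2% of all tested genes did not overlap (11.5% higher, 9.76% lower). Of the 22 genes only Nid2 was called in each of the 14 alternative settings. The chart of differences by role shows this order within each class.

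**Figure D1:**
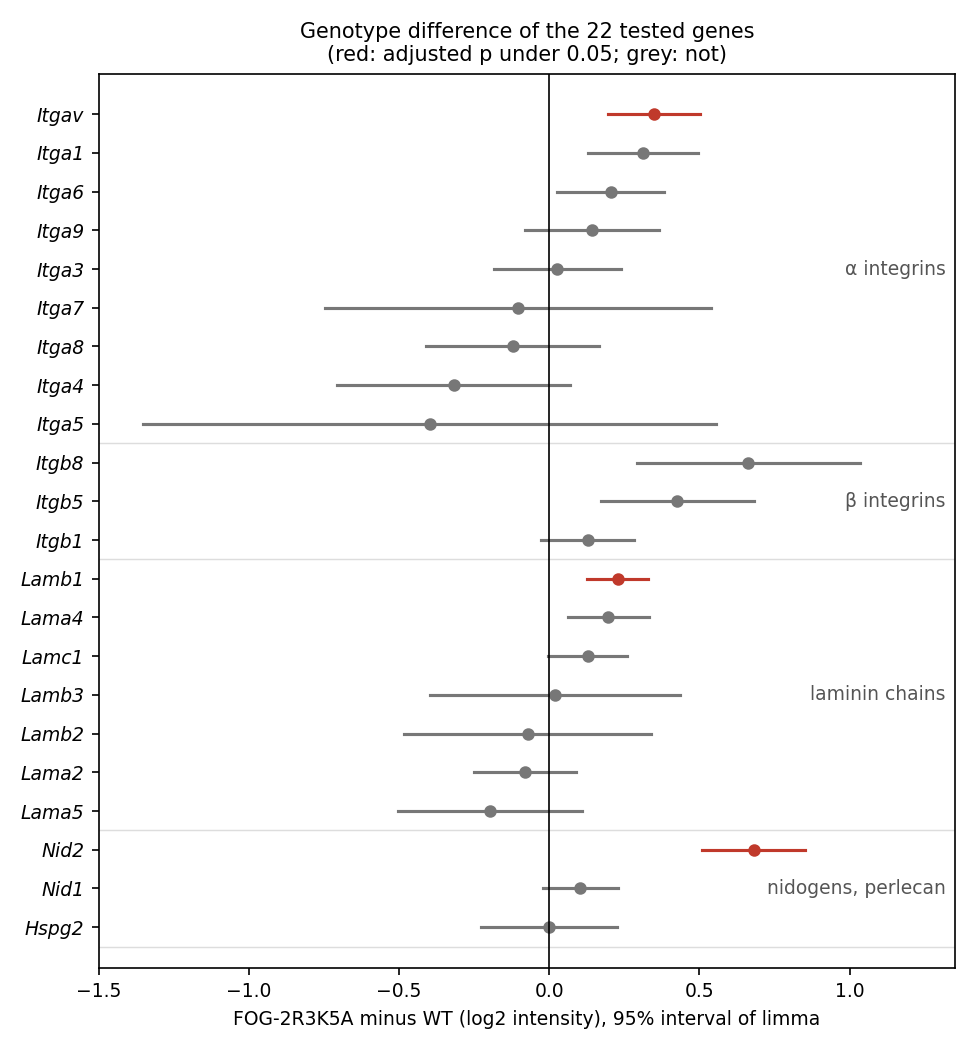
Genotype difference (x axis, mutant minus WT, log2 intensity) of the 22 tested genes with limma's 95% intervals, grouped by role on the y axis. Red points are genes called at an adjusted p under 0.05: Nid2 at 0.68, Itgav at 0.35 and Lamb1 at 0.23; Itga5 at -0.40 has the widest interval.

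The 250 bases before the annotated starts of Itgav and Lamb1, both among the 3 genes that rose, are shown because the mutated protein acts through GATA factors. Beside them stands Lama2, the 1 gene with the letters GATAA in that window among the 21 of the set with a promoter sequence. They are RefSeq sequences of build GRCm38.p6, at chr2:83724147-83724396 (plus strand) for Itgav, chr12:31265043-31265292 (plus strand) for Lamb1 and chr10:27616943-27617192 (minus strand) for Lama2. Each is written 5′ to 3′ with a match in capitals:
Itgav: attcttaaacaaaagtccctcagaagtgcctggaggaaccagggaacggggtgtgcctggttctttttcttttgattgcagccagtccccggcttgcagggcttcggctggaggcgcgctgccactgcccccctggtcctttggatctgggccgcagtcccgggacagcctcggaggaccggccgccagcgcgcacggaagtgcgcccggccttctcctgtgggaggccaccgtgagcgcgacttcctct
Lamb1: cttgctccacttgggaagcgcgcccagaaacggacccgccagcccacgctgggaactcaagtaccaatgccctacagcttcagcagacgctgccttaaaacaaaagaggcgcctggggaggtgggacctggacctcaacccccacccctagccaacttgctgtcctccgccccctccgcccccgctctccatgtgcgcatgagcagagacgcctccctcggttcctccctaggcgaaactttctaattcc
Lama2: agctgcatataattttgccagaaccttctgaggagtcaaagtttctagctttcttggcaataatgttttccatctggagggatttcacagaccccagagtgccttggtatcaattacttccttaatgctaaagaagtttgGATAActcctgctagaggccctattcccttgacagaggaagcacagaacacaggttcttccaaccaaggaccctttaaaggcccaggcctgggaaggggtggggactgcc
The motif searched was GATAA, read on both strands (TTATC on the other), and no other form of a GATA site was searched. Among the 31 genes 21 had a promoter in the sequence table, 24 promoters in all, with none of Nid2, Lama4 or Lamc1 among them, and 1 promoter (4.17%) held the motif, against 22.6% of the 32851 promoters of the table. The median GC content was 61% in the 24 promoters and 52.4% over the table. A match is a description of letters and not a bound site, and the share of promoters without one says nothing of binding by GATA factors elsewhere.

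Among the nidogens and perlecan, Nid2 rose, and Nid1 and Hspg2 did not pass. Nid2 encodes nidogen-2, a link between laminin and collagen IV. It read 11.17, 11.15 and 11.26 in mutant hearts, against 10.61, 10.38 and 10.56 in WT hearts. The lowest mutant array was above the highest WT array by more than the range of either genotype. The means were 11.20 ± 0.06 in mutants and 10.52 ± 0.12 in WT (SD, n = 3 each), a difference of 0.68 (SE 0.08, 1.603-fold, limma adjusted p = 0.00435). It was higher in 3 of 3 mutant samples than in any WT sample, and its limma adjusted p was 0.000865 to 0.0292 over the 14 alternative settings. Nid2 was read by 1 probe set, so no other probe set bears on this value.

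Nid1, the other nidogen, read 11.63, 11.58 and 11.54 in mutants, against 11.45, 11.54 and 11.45 in WT. These genotypes overlapped narrowly, and the difference of 0.10 did not pass (adjusted p = 0.420, 95% interval -0.02 to 0.23). Its interval lies below that of Nid2, 0.51 to 0.85, though the difference between the nidogens was not itself tested. Hspg2 (perlecan, which carries heparan sulfate chains) averaged 10.39 ± 0.20 in mutants and 10.39 ± 0.06 in WT (SD, n = 3 each), with an interval of -0.23 to 0.22. Its second probe set read 8.69, 8.74 and 8.501 in mutants, against 8.47, 9.57 and 9.08 in WT, where the WT arrays lay far apart and the difference of -0.40 did not pass (adjusted p = 0.47 over all probe sets).

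Among the laminin chains, Lamb1 rose, and Lama4 and Lamc1 also had genotypes that did not overlap but did not pass. Lamb1 encodes the β1 chain, shared by several laminins. It read 12.12, 12.13 and 12.15 in mutant hearts, against 11.92, 11.87 and 11.93 in WT hearts. The arrays of each genotype lay close together, with an SD of 0.02 in mutants and 0.03 in WT, so that a small difference of 0.23 (SE 0.04, 1.17-fold) passed at an adjusted p of 0.0440. It was called in 3 of 14 alternative settings, and adjusted p was 0.0509 with median-centred arrays and 0.151 with the mean of its probe sets. A second Lamb1 probe set had the same difference of 0.23 with no overlap, while the third had 0.07 with overlap. In the limma fit over all probe sets rather than 1 per gene, the main probe set of Lamb1 had an adjusted p of 0.0577.

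Lama4, the α4 chain of vessel and muscle basement membranes, read 11.28, 11.29 and 11.15 in mutants, against 11.05, 11.06 and 11.02 in WT. Its lowest mutant value stood just above the highest WT value, and the difference of 0.20 (SE 0.06) did not pass (adjusted p = 0.167). The second Lama4 probe set read 9.71, 9.71 and 9.70 in mutants, against 9.42, 9.40 and 9.15 in WT, again without overlap, with a difference of 0.38 (adjusted p = 0.104 over all probe sets). Lamc1, the γ1 chain common to most laminins, read 11.09, 11.10 and 11.18 in mutants, against 10.95, 10.999 and 11.03 in WT. These groups were separated by a narrow gap, and the difference of 0.13 did not pass (adjusted p = 0.351).

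Lama2, the α2 chain of the laminin around muscle cells, whose loss causes muscular dystrophy, was the 1 tested gene of the set with every mutant array below every WT array. It read 9.38, 9.35 and 9.38 in mutants, against 9.42, 9.42 and 9.51 in WT. The gap was small, and the difference of -0.08 did not pass (adjusted p = 0.652, 95% interval -0.25 to 0.09). Lama5, the α5 chain found in many epithelial and vessel basement membranes, had -0.20 on its main probe set, with overlap. On its second probe set it read 6.56, 6.65 and 6.47 in mutants, against 6.87, 7.10 and 6.70 in WT. All mutant arrays were lower there, and the difference of -0.33 did not pass (adjusted p = 0.345 over all probe sets). Lamb2, a second β chain, had -0.07, and Lamb3, the β chain of epithelial laminin, 0.02, both with overlap.

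**Figure D2:**
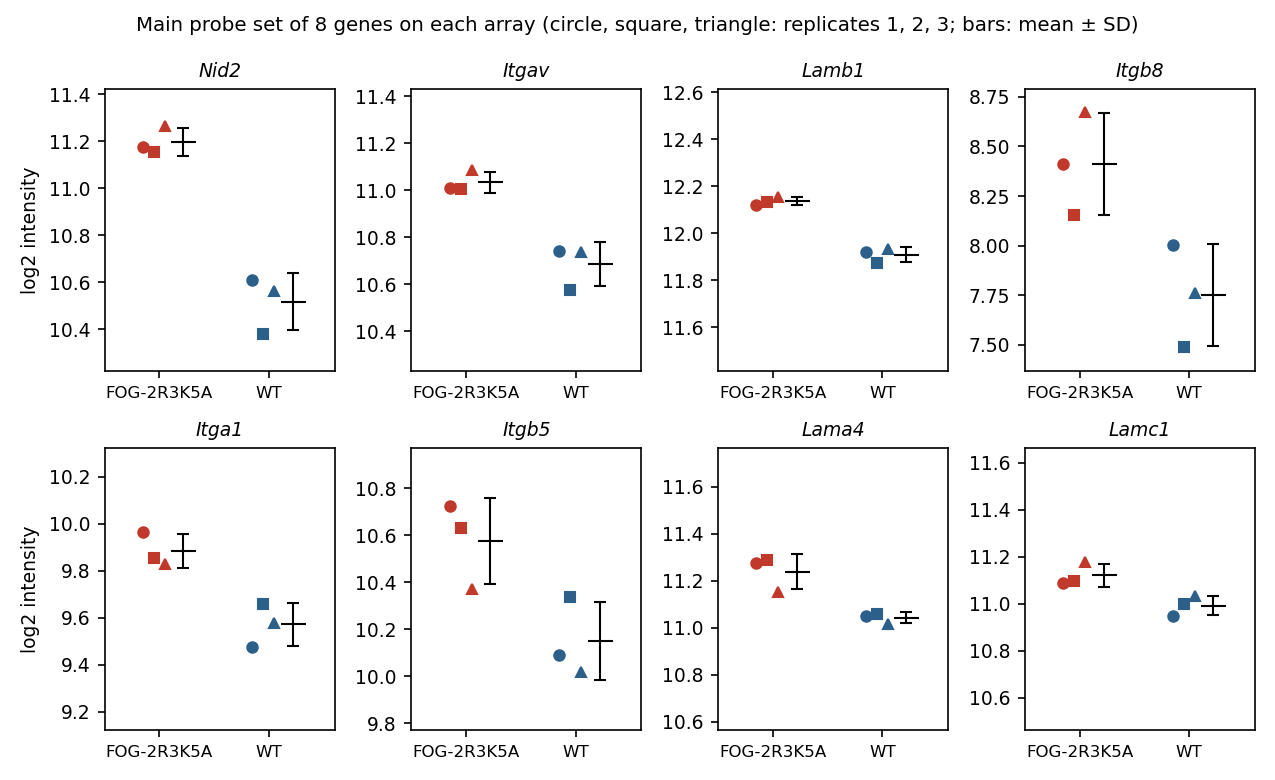
Log2 intensity (y axis) of the main probe set of 8 genes on each array, with mutants left of WT; symbols stand for replicates 1, 2 and 3 and bars for the mean ± SD. The 8 genes shown are those of the 22 tested with every mutant array above every WT array, so this separation follows from their choice. The margin is widest for Nid2 and narrow for Lamc1. Of the 8 genes 3 (Nid2, Itgav and Lamb1) were called.

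Among the integrin α subunits, Itgav rose and 8 other tested genes did not pass. Itgav encodes αv, which pairs with several β subunits and binds matrix proteins with an RGD sequence, vitronectin and latent TGF-β among them. It read 11.01, 11.01 and 11.09 in mutant hearts, against 10.74, 10.58 and 10.74 in WT hearts. Every mutant array was above every WT array, with means of 11.03 ± 0.04 in mutants and 10.69 ± 0.09 in WT (SD, n = 3 each). The difference was 0.35 (SE 0.07, 1.27-fold, limma adjusted p = 0.0428). In the limma fit over all probe sets it had an adjusted p of 0.0558.

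The Itgav probe sets did not move alike. The second, dimmer one read 7.95, 7.95 and 7.78 in mutants, against 7.53, 7.75 and 7.43 in WT, also without overlap (difference 0.32). The third read 6.38, 6.39 and 6.64 in mutants, against 6.53, 6.57 and 6.65 in WT, near the filter level, with overlap and a difference of -0.12. The difference between the main and the third probe set was 0.46 (95% interval 0.23 to 0.70), and it did not pass when adjusted over all 8649 probe set pairs (limma adjusted p = 0.465). With the mean over its probe sets above the filter level, Itgav had 0.19 and was not called (adjusted p = 0.259). The remaining Itgav probe sets, at 3.50 to 3.89 on average in either genotype, were far below the filter level.

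The calls of Itgav and Lamb1 were lost in most fits that left out 1 array. Without mutant replicate 1, 2 or 3 or WT replicate 2 or 3, both were lost, with adjusted p from 0.0835 to 0.188 for Itgav and from 0.105 to 0.204 for Lamb1. Without WT replicate 1 both were called (0.0360 and 0.0398), and Itgb8 was called too. The differences themselves stayed between 0.29 and 0.38 for Itgav and between 0.21 and 0.24 for Lamb1 in these 6 fits.

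Of the β subunits that pair with αv, Itgb5 and Itgb8 had higher values in mutants that did not pass over all genes. Itgb5 encodes β5, which forms a vitronectin receptor with αv. Its main probe set read 10.72, 10.63 and 10.37 in mutants, against 10.09, 10.34 and 10.02 in WT, a difference of 0.43 (SE 0.11, 1.34-fold, adjusted p = 0.115). The margin between mutant replicate 3 and WT replicate 2 was thin on that probe set. All 4 Itgb5 probe sets had genotypes that did not overlap, with differences of 0.37 to 0.49. The dimmest of them read 9.92, 9.72 and 9.67 in mutants, against 9.35, 9.26 and 9.23 in WT, with a wide gap. It was 1 of the 2 probe sets of these genes called among the 41 above the filter level (adjusted p = 0.0438 over 19762 probe sets, of which 1.1% were called, 0.88% higher and 0.218% lower), Nid2 being the other. This call was lost without any 1 mutant array and without WT replicate 2 or 3, when 1 or 2 of the 41 were called.

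Itgb8, whose product activates latent TGF-β with αv, read 8.41, 8.15 and 8.67 in mutants, against 8.001, 7.49 and 7.76 in WT. The groups did not overlap but spread widely, at 8.41 ± 0.26 in mutants and 7.75 ± 0.26 in WT (SD, n = 3 each). The difference of 0.66 (SE 0.17, 1.58-fold) was the second largest of the 22 tested genes and did not pass (adjusted p = 0.0949). Itgb1, the partner of most α subunits, read 11.67, 11.59 and 11.74 in mutants, against 11.45, 11.66 and 11.51 in WT. These overlapped, with a difference of 0.13 (adjusted p = 0.424, 95% interval -0.03 to 0.28), and both of its other bright probe sets had 0.08.

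The collagen and laminin receptor subunits gave mixed values. Itga1, a collagen and laminin receptor subunit, read 9.97, 9.86 and 9.83 in mutants, against 9.48, 9.66 and 9.58 in WT on its main probe set, a difference of 0.31 that did not pass (adjusted p = 0.108). Its second probe set read 8.12, 7.85 and 8.09 in mutants, against 8.06, 8.20 and 8.07 in WT. The first pair of groups was separated and the second overlapped with the opposite sign (-0.09), and the difference between the probe sets, 0.40 (95% interval 0.17 to 0.63), did not pass over all pairs (adjusted p = 0.474). Itga6, a laminin receptor subunit of epithelia and endothelium, read 11.42, 11.58 and 11.49 in mutants, against 11.45, 11.24 and 11.19 in WT, with 1 WT array among the mutants and a difference of 0.20 (adjusted p = 0.267). Its second probe set had 0.31 with no overlap. Itga3, a laminin receptor subunit of epithelia, had 0.03 (95% interval -0.18 to 0.24). Itga7, the main laminin receptor subunit of muscle, was dim on its 1 probe set and spread widely, at 6.38 ± 0.31 in mutants and 6.49 ± 0.60 in WT (SD, n = 3 each), with an interval of -0.75 to 0.54.

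The fibronectin and tenascin receptor subunits did not pass. Itga5, of the fibronectin receptor, read 8.29, 8.26 and 7.99 in mutants, against 8.02, 9.81 and 7.89 in WT. Its second probe set read 6.47, 6.47 and 6.54 in mutants, against 6.43, 8.02 and 6.55 in WT. On both probe sets WT replicate 2 stood apart from the other arrays, which lay together. The difference was -0.40 with all arrays (adjusted p = 0.692) and 0.22 without WT replicate 2 (adjusted p = 0.512), with opposite signs. WT replicate 2 was also the highest array for Lamb2, at 8.501, 8.42 and 8.31 in mutants, against 8.39, 8.93 and 8.12 in WT, with 0.15 without WT replicate 2.

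Itga4, which binds VCAM1 and fibronectin, read 6.18, 6.36 and 6.17 in mutants, a mean below the filter level, against 6.80, 6.24 and 6.63 in WT. The groups overlapped and the gene was not called (limma adjusted p = 0.428). Itga8, a receptor subunit for nephronectin, had -0.12 and -0.26 on its probe sets, and Itga9, a receptor subunit for tenascin-C and VCAM1, 0.14 and 0.25, all with overlap.

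**Figure D3:**
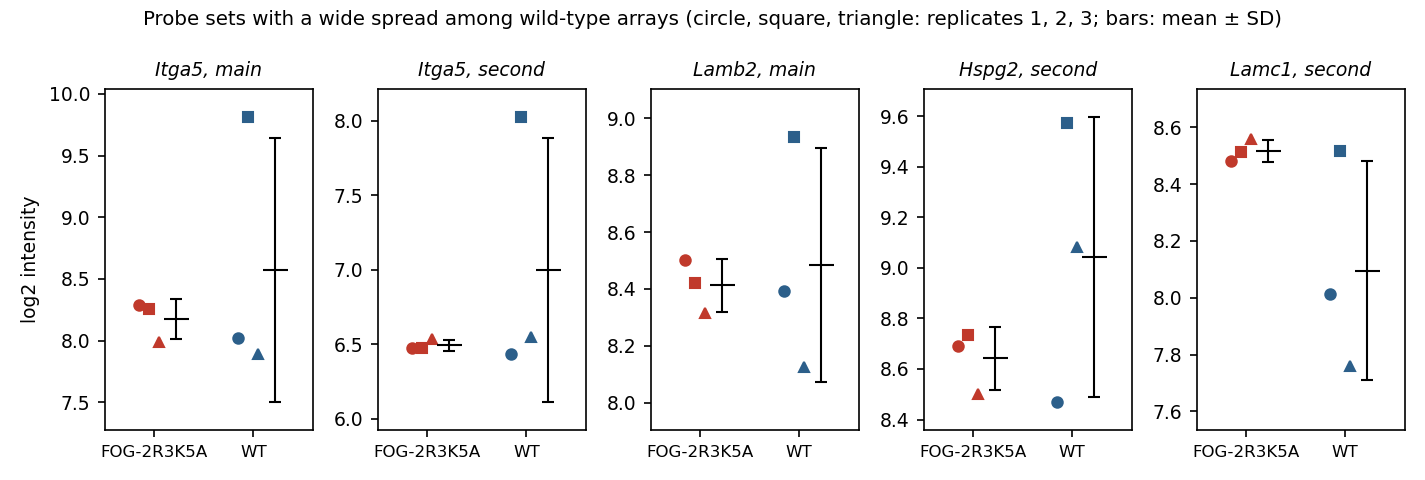
Log2 intensity (y axis) on each array of 5 probe sets with a wide spread in WT, mutants left of WT, with symbols for replicates 1, 2 and 3 and bars for the mean ± SD. WT replicate 2 (square) is the highest WT array in every panel, at 9.81 for the main Itga5 probe set against 8.02 and 7.89 on the other WT arrays. The panels were picked with this array in view, so its place in them follows from their choice. For the main probe sets of Itga4 and Itgb8 it was the lowest WT array.

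Agreement between probe sets could be looked at in 14 genes with more than 1 above the filter level. In 12 of them all such probe sets had the same sign, and in Itga1 and Itgav the signs differed. Of 19 pairs of a main and another probe set, 0 differed in their genotype difference by limma after adjustment and 2, those of Itga1 and Itgav, at an unadjusted p under 0.05. Over all 8649 pairs of the array 0% were called and 7.84% had an unadjusted p under 0.05.

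**Figure D4:**
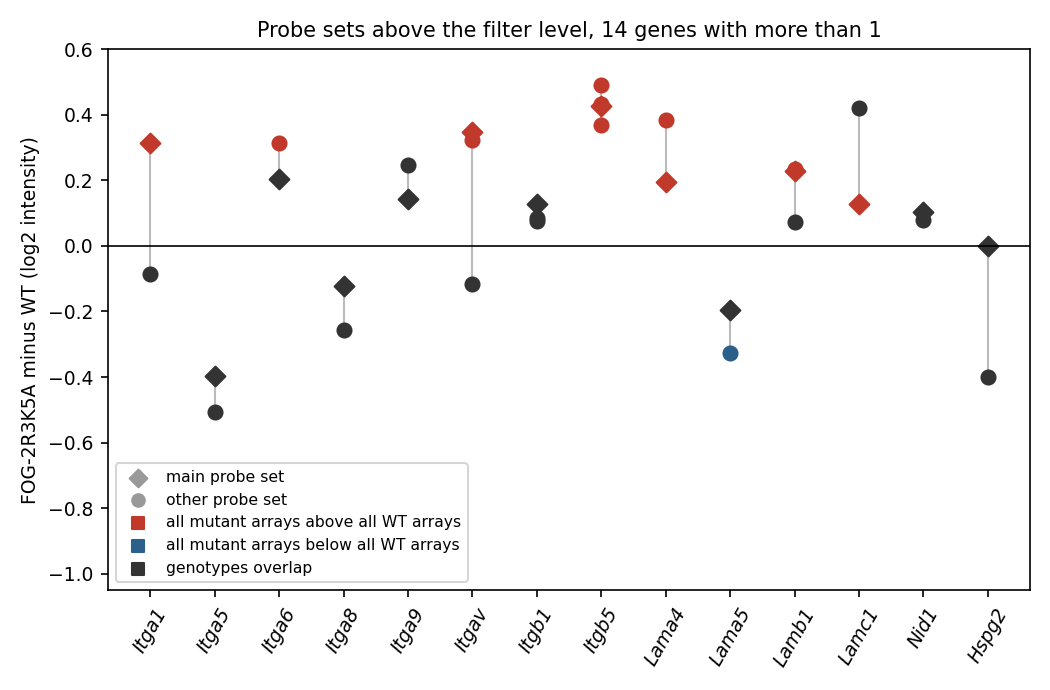
Genotype difference (y axis, mutant minus WT, log2 intensity) of each probe set above the filter level for the 14 genes (x axis) with more than 1; diamonds are main probe sets and circles others, red where every mutant array was above every WT array and blue where every one was below. The 4 Itgb5 probe sets lie together at 0.37 to 0.49, and Itga1 and Itgav have probe sets on both sides of 0.

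Another 8 genes were below the filter level and were not tested: Itga2, Itgb3, Itgb4, Itgb6, Itgb7, Lama1, Lama3 and Lamc3. Lama3, the α chain of epithelial laminin, read 5.87, 5.84 and 6.08 in mutants, against 5.25, 5.18 and 5.31 in WT. Itgb3, a partner of αv in platelets and vessels, read 6.07, 6.05 and 6.06 in mutants, against 5.89, 5.91 and 5.34 in WT. On these probe sets both were separated by genotype, at a level where no detection call was used. Their second probe sets overlapped, with differences of 0.10 for Lama3 and -0.07 for Itgb3. The share without overlap over all genes below the filter level was not counted. The main probe sets of the other 6 genes overlapped. They include Itgb6, a partner of αv in epithelia, Itgb7, of leukocytes, and Itgb4, of hemidesmosomes. Tested without a filter, the 30 genes gave 1 call, Nid2. The further probe sets of the 8 untested genes lay below the filter level too.

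Related genes were counted in 5 further lists. Among 13 tested integrin ligands other than laminins, Mfge8 rose and 0 fell. The shares of all tested genes called were 1.39% higher and 0.369% lower. Mfge8 encodes a secreted RGD protein that binds αv integrins. It read 11.78, 11.79 and 11.85 in mutants, against 11.35, 11.36 and 11.46 in WT. The groups were widely separated, with a difference of 0.42 (SE 0.05, 1.34-fold, adjusted p = 0.00836). It was called in 12 of 14 alternative settings, the highest adjusted p being 0.0506. Of these 13 genes 11 had positive differences, with a median of 0.18, where 47.2% of all tested genes were positive.

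Among 17 tested basement membrane genes outside the set, 2 rose and 1 fell. Over all tested genes 1.39% were called higher and 0.369% lower. Fras1, which encodes a large matrix protein beneath embryonic epithelia, read 10.44, 10.35 and 10.38 in mutants, against 9.62, 9.36 and 9.38 in WT. The groups lay far apart, with a difference of 0.94 (SE 0.09, 1.91-fold, adjusted p = 0.00188), while its other probe set, also above the filter level, overlapped at 0.02. Col4a4, a collagen IV chain of restricted basement membranes, read 7.29, 6.57 and 7.13 in mutants, against 6.00, 5.86 and 5.65 in WT. Its WT mean was below the filter level, so it was at least 1.62-fold higher, counted from that level (adjusted p = 0.0286). It passed the filter only through its mutant arrays, and without the filter it was not called (limma adjusted p = 0.0865). Its other probe sets, themselves below the filter level, had -0.21 with overlap and 1.09 without overlap. Ntn4, a netrin related to laminins that can disturb laminin networks, read 8.86, 9.005 and 8.52 in mutants, against 9.37, 9.62 and 9.41 in WT. All mutant arrays were lower, with a difference of -0.67 (SE 0.13, adjusted p = 0.0428), and its other probe set had -0.56 with no overlap. The calls of Col4a4 and Ntn4 were each kept in 2 of the 6 fits that leave out 1 array, and Fras1 was called in 14 of 14 settings.

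The other 3 lists had 0 called genes by limma. Over all tested genes 14.7% had an unadjusted p under 0.05 (8.4% higher, 6.33% lower). Of 23 tested cytoplasmic partners of integrins, 3 were higher and 2 lower at an unadjusted p under 0.05, with Itgb1bp2 (melusin, a muscle partner of β1) at -0.26 (adjusted p = 0.239) and Bcar1 at 0.33 (adjusted p = 0.270), and a median of -0.02. Of 13 tested genes of the dystroglycan complex and other laminin receptors, 1 was higher and 1 lower at that level, with Sgca, a sarcoglycan, at 0.23 (adjusted p = 0.278) and Sntb1, a syntrophin, at -0.35 (adjusted p = 0.334), and a median of 0.08. Of 4 tested other integrins, 0 reached it, with Itgal at -0.42 and Itgae at 0.20, both integrins of leukocytes.

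**Figure D5:**
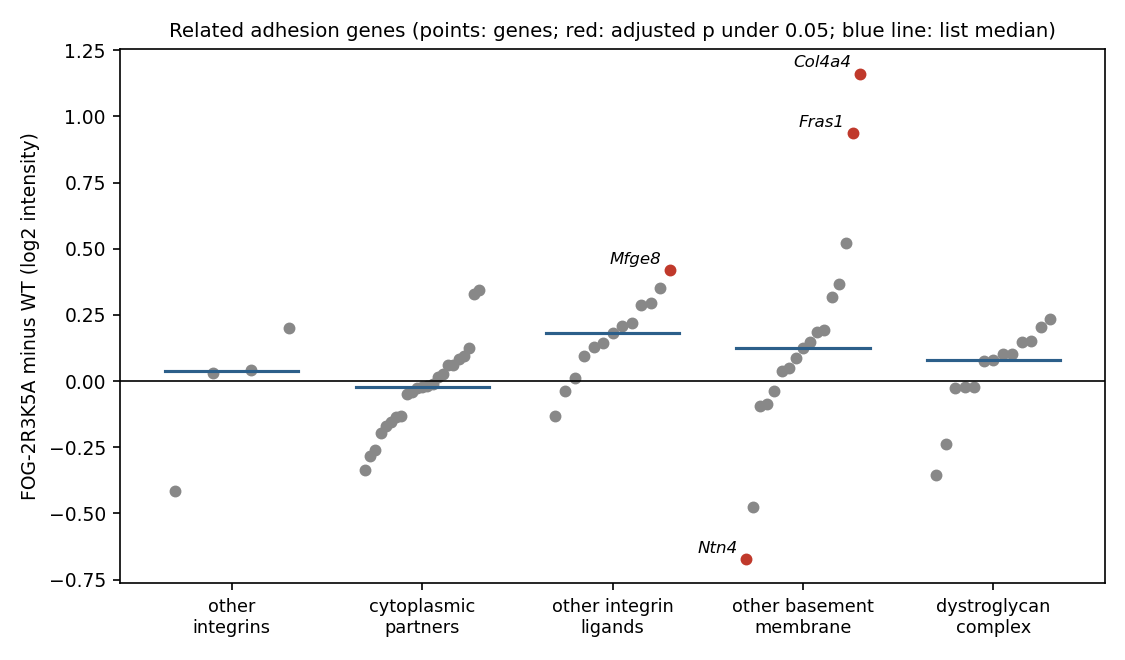
Genotype difference (y axis, mutant minus WT, log2 intensity) of each tested gene of 5 related lists (x axis), with called genes in red and the list median as a blue line. Fras1 lies at 0.94 and Col4a4, whose WT mean was below the filter level, is plotted at its fitted value, for which the text gives a bound. Ntn4 is the lowest at -0.67, and Mfge8 at 0.42 is the 1 called integrin ligand.

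Some markers of other cells moved with the genotype on the same arrays. Of 14 epicardial and mesothelial markers, 7 were called higher, by 0.47 to 1.54, where 1.39% of all tested genes were called higher. Among the 7, Muc16 passed the filter only through its mutant arrays (means of 6.78 in mutants and 5.85 in WT). The summed intensity of the list was 9181 to 10092 on mutant arrays and 7160 to 7464 on WT arrays. The epicardial factors Wt1, Tbx18 and Tcf21 in that list had -0.06, -0.11 and -0.09. Of 8 fibroblast markers 2 were called higher, Vcan and Fbln2 (sums of 30017 to 32328 in mutants and 26309 to 29177 in WT). Of the 8, 5 had positive differences, and Pdgfra, Col1a1 and Col3a1 had -0.02 each with overlap. Above the filter level were 3 Schwann cell and neuron markers, of 6 with a probe set, and 0 were called. The sums over the 6 were 1076 to 1194 in mutants and 843 to 927 in WT. Of the 3, Uchl1 had 0.61 without overlap, and Sox10 and Dbh had -0.08 and -0.003 with overlap. Sums over 7 skeletal muscle markers were 1372 to 1638 in mutants and 1967 to 2059 in WT. Of the 7, 2 were called lower, where 0.369% of all tested genes were, and Myod1 and Myog were below the filter level. Lung and airway markers summed to 560 to 4031 in mutants and 509 to 731 in WT, with mutant replicate 3 the highest. Of these, Scgb3a2, a secreted protein of airway epithelium, read 9.03, 4.87 and 11.36 in mutants, against 4.83, 4.81 and 5.40 in WT (limma adjusted p = 0.253). Sftpc, a surfactant protein of the lung, read 6.17, 5.80 and 9.43 in mutants, against 6.07, 5.86 and 6.53 in WT (limma adjusted p = 0.593). Mutant replicate 3 was high for both and mutant replicate 1 for Scgb3a2, while Nkx2-1, Sftpd and 7 other markers of the 13 were below the filter level. The sums over 13 endothelial markers, of which 1 was called higher and 1 lower, overlapped at 15363 to 16250 in mutants and 15289 to 15875 in WT, as did those over 11 cardiomyocyte markers, at 86635 to 89191 in mutants and 83827 to 89177 in WT. The sums of the smooth muscle, leukocyte and platelet lists overlapped too, with 0 called genes by limma (1, 2 and 0 at an unadjusted p under 0.05). The part of the markers that moved in the values of Nid2, Itgav, Lamb1, Mfge8, Fras1, Col4a4 and Ntn4 was not tested.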

How the data were processed

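Total RNA (3 µg per sample, Trizol, per the labels' protocols) of 6 whole-heart samples had been hybridised to 1-colour Affymetrix arrays. The authors deposited linear probe set intensity values whose array medians lay within 0.12 log2 units of each other. Their software and normalization were not given in the sources used. Gene symbols came from the platform annotation, where 34945 of 45101 probe sets had 1 symbol, 932 several and 9160 none, and 64 were controls; 0 symbols needed updating against GRCm38.p6.

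Intensities were floored at 1 and log2-transformed. Arrays were not normalized again, which was reserved for medians over 0.2 log2 units apart. Genes were tested with limma 3.58.1 in R 4.3.3 (lmFit and eBayes with an intensity trend, two-sided), with Benjamini-Hochberg adjustment over 11113 genes. The same fit ran over 19762 probe sets, and without the trend over 8649 differences between 2 probe sets of a gene. It was tested on simulated arrays with known changes, 10 runs of each. Over genes it called 4.99% of changes of 0.25 log2 units, 49% of 0.5 and 87.5% of 1. A small difference that did not pass is therefore not shown to be absent. By rule, values on every array are given for genes called in either fit, without overlap on the main probe set, or among the 8 largest differences, and of other lists the called genes or else the 2 with the smallest p are named. Array values of Nid1, Itgb1, Itgb3, Itga6, Lama3, Lamb2 and of further probe sets, and the markers named, were chosen after their values were seen. The genes, lists and tests were chosen with earlier results of these data known. Precision is limited by there being 3 arrays a genotype. Figures were drawn with matplotlib 3.10.9.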

Additional observations from a re-analysis of the deposited data

How the results depend on the processing

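The count of 3 genes called, of 22 tested, was 1 with quantile normalization, without the filter on dim genes, without the intensity trend and with the mean of a gene's probe sets. Array quality weights gave 6, which added Itga1, Itgb5 and Lama4. It ran from 1 to 4 with each array left out. The 2 called probe sets of these genes were 1 without the filter and without the trend, 8 with array weights, 5 at an adjusted p under 0.1 and 1 to 4 with each array left out. The count over all genes, 196, was 81 without the filter, 119 without the trend, 429 with array weights, 369 at an adjusted p under 0.1 and 37 to 451 with each array left out. The count of 0 probe set pairs did not change in any of the alternatives run on it. Causes of these shifts were not tested.

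Of the 22 differences 6 changed sign, that of Itga5 among them. Hspg2 had 0.0405 with median-centred arrays, 0.00584 with quantile normalization, 0.0819 with array weights and -0.0859 to 0.11 with each array left out. Lamb2 had 0.0618 with array weights and -0.25 to 0.15 with each array left out. With each array left out Itga3 ran from -0.00259 to 0.0744, Itga5 from -0.74 to 0.22, Itga7 from -0.45 to 0.10 and Lamb3 from -0.0861 to 0.17. The other 16 tested genes kept their sign in all 14 alternatives.

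Equal replicate numbers were not shown to pair the samples. Same-numbered arrays correlated in their deviations at -0.06, 0.13 and 0.41, and 2 of the 6 arrays, those of replicate 3, lay closest to their own number. With 3 arrays a genotype this check cannot exclude a pairing. With the replicate block 234 genes were called in all and 3 of the 22, with Itgb8 (adjusted p = 0.0414 by limma) in place of Lamb1 (0.0568), and 3 probe sets.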
